A study of Mus musculus with 13 samples.

Results

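The cells described here are CD8 T cells found in single-cell suspensions of uninjured mouse hindlimb muscle. They were chosen by their own measured values: a cell was taken when it held at least 1 UMI (a unique molecular identifier, which counts 1 captured transcript) of Cd3d, Cd3e or Cd3g, at least 1 UMI summed over Cd8a and Cd8b1, and no UMI of Cd4 or of Cd79a. This gate held 544 of 12441 cells, 282 of 6144 in library 1 and 262 of 6297 in library 2. Both libraries were made from mononuclear cells of wild type C57BL/6 mice aged 2 months, on the Chromium droplet platform, and neither was treated or injured. The study also holds bulk libraries of sorted muscle cells, which were not used here. Whether the 2 libraries came from different mice is not given in the labels. The names of their deposited tables carry dates in different years, without saying what was done on those days, so that any difference between the days cannot be told apart from a difference between the libraries. The tests below fit the library as a block, save where stated. Their p-values therefore rest on how far differences between classes varied between 2 libraries of 1 group, and that variation may be technical. Where the block was left out, the spread between the libraries enters as well. The labels also do not say whether blood was flushed out before dissociation, so CD8 T cells of the muscle and of its blood cannot be told apart.

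CD8 T cells are the lymphocytes that read peptides on MHC class I molecules. Their coreceptor CD8 is a pair of chains encoded by Cd8a and Cd8b1, and the CD3 chains carry the signal of the T cell receptor into the cell. Naive CD8 T cells circulate between blood and lymph nodes, guided in part by the chemokine receptor Ccr7, whereas antigen-experienced cells make chemokines such as Ccl5, cytokines such as Ifng, and granule proteins that kill a target cell. In uninjured muscle T cells are a small population beside mesenchymal, endothelial and other blood cells.

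The gate took 4.59% of the cells of library 1 (95% exact binomial interval 4.08 to 5.14) and 4.16% of those of library 2 (3.68 to 4.68). These intervals cover counting error only. Among the cells with any CD3 UMI, 836 and 981, the gate held 33.7% and 26.7%. Cells with CD3 and Cd8 UMIs that were left out for a Cd4 UMI numbered 7 and 1, and those left out for a Cd79a UMI 14 and 8. CD4 T cells, taken as cells with CD3 and Cd4 UMIs and no Cd8 or Cd79a UMI, numbered 121 and 46, so that 2.33 and 5.70 CD8 T cells were counted for each CD4 T cell. That ratio depends on how often Cd4, Cd8a and Cd8b1 transcripts are caught: 381 and 615 cells held a CD3 UMI and none of Cd4, Cd8a, Cd8b1 or Cd79a. With 1 library each, the difference in this ratio between the libraries has no test.

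The chains that define the gate were caught more fully in library 1. Cd8a, the alpha chain, stood at 445 CPM (UMIs of the gene per 1000000 UMIs of the cells) in library 1 and 206 in library 2, and Cd8b1, the beta chain, at 912 and 633. Cd3d, a CD3 chain, stood at 983 and 644 CPM. Both CD8 chains were seen in 74.1% of the gated cells of library 1 and in 29.4% of those of library 2, while 64 and 154 cells had Cd8b1 alone and 9 and 31 had Cd8a alone. The median gated cell held 5 Cd8 UMIs in library 1 and 2 in library 2, with a median total of 3738 and 2743 UMIs. At the edge of the gate, 24 cells of library 1 and 108 of library 2 rested on a single Cd8 UMI, and 43 and 87 cells held a Cd8 UMI but no CD3 UMI and stayed outside. All of these values come from the rule itself and carry no test.

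**Figure D1:**
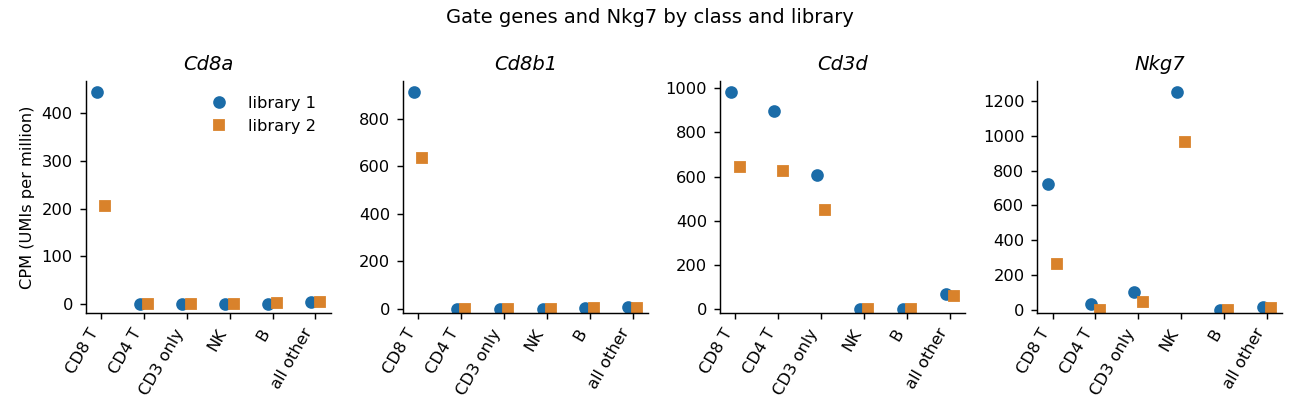
CPM (vertical axis) of Cd8a, Cd8b1, Cd3d and Nkg7 in 6 classes of cells, with library 1 as circles and library 2 as squares. "CD3 only" holds cells with a CD3 UMI and none of Cd4, Cd8a, Cd8b1 or Cd79a, "all other" every cell outside the CD8 gate; the first 3 genes follow from the gates, and Nkg7, which no gate read, stood at 721 and 264 in CD8 T cells and at 17.3 and 13.6 in all other cells.

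The label was set against genes the gate did not read. Of these, Nkg7 was also given as a marker with the gate, so it is no independent check. Nkg7, a granule membrane protein of killer lymphocytes, was at 721 and 264 CPM in the gated cells, at 33.2 in the CD4 T cells of library 1, and without a UMI in the 46 CD4 T cells of library 2. It was lower at the edge, at 351 and 161 in cells with a single Cd8 UMI against 755 and 333 in cells with 2 or more, and lower again, at 104 and 48.4, in cells just outside with CD3 UMIs only. Trac, the constant region of the alpha chain of the T cell receptor, was at 524 and 366 in the gated cells. In the CD3 cells just outside it was at 500 and 285, so it did not set the gate apart from them. Trdc, the delta chain constant region, was at 188 and 99.3 CPM in the CD3 cells just outside and at 5.45 and 2.57 in the gate. These values go with the label of alpha-beta T cells. Of the 3 genes that define NK cells below, Ncr1 and Klrb1c had no UMI in the gate in either library, and Klre1 had 13 and 4 UMIs, in 2.13% and 1.53% of cells, against 89.5% and 84.0% of NK cells. In all, the 13 NK markers summed to 139 and 127 CPM, 9 of 13 with a UMI in library 1 and 5 of the 11 measured in library 2.

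Markers of other cells were present too. Of the 14 B cell markers, 11 and 12 had a UMI in the gate, and they summed to 575 and 2040 CPM, against 44029 and 42855 in B cells; the gate excluded Cd79a, and Pax5 had no UMI in either library. All 10 fibro-adipogenic markers, among them the matrix genes Dcn and Col1a1, summed to 1475 and 1518, against 22986 and 19813 in all other cells. The 6 neutrophil markers summed to 643 and 537. The 7 muscle fibre markers, such as the skeletal actin gene Acta1, summed to 36.3 and 851 CPM, and in library 2 that was above the 322 CPM of all other cells; in library 1 the other cells stood at 243. Scrublet called 3 gated cells of library 1 as doublets and none in library 2, but it marked only 0.0635% of all cells of library 2, so that its calls there cannot be relied on; whether doublets had been removed before deposit was not tested. The libraries shared 53 cell barcodes, none of them a CD8 T cell in both, and 3 gated cells had a barcode that also occurs in the other library. Ribosomal protein genes took 45.0% and 44.2% of the UMIs of the gated cells, against 20.7% and 19.7% in all other cells.

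The stretches before the start sites of 4 genes are shown because the results turn on them: Cd8a sets the gate, Nkg7 separated CD8 from CD4 T cells, and Dapl1 and Xcl1 moved in opposite directions between CD8 T cells without and with Ccl5. They are RefSeq promoters of build GRCm38.p6, 250 bases long, printed 5′ to 3′ on the strand of the gene. Of 7 symbols looked for, 5 matched. They lie at chr6:71373177-71373426 on the plus strand for Cd8a, chr7:43436888-43437137 on the plus strand for Nkg7, chr2:59484403-59484652 on the plus strand for Dapl1 and chr1:164935523-164935772 on the minus strand for Xcl1. Capitals mark exact matches, on either strand, to 3 core motifs of factors that act in T cells: TGTGGT for RUNX factors, GTGTGA for T-box factors and CTTTGA for TCF and LEF factors.
Cd8a: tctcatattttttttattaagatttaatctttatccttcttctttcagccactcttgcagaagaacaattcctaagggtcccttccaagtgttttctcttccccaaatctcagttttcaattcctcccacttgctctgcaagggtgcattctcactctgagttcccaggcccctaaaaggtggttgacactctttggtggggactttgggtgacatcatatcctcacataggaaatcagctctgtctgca
Nkg7: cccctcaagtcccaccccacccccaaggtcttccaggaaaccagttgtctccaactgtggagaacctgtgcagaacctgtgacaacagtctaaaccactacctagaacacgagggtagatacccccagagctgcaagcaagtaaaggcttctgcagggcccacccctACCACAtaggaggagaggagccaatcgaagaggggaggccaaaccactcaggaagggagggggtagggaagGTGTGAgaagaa
Dapl1: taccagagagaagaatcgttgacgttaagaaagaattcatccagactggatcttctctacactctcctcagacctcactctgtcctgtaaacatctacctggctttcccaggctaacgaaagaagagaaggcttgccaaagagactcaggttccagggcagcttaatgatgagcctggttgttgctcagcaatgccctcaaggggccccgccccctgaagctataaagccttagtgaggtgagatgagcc
Xcl1: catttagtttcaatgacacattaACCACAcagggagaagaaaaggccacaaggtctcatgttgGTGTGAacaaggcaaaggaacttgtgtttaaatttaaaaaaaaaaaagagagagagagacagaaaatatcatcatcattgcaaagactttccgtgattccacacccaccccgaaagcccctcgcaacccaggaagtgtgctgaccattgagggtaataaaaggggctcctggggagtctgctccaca
Nkg7 and Xcl1 each held 1 RUNX match, read on the opposite strand as ACCACA, and 1 T-box match. Counted back from the start site to the first base of the match, they lay at 83 and 12 bases in Nkg7 and at 227 and 187 bases in Xcl1, and the matches did not overlap. Cd8a and Dapl1 held no match to any of the 3. Matches this short are common: of 32851 stretches of the same length, 14.0% held the RUNX letters, 12.3% the T-box letters and 13.8% the TCF and LEF letters. A match describes letters and is not a site of binding.

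Transcripts of naive, lymph-node-homing T cells were seen in a large share of the gated cells. To compare shares of cells at 1 depth, every cell was thinned to 500 UMIs, which left out no cell. After thinning, Lef1, a transcription factor of naive T cells, was seen in 16.7% of the cells of library 1 (exact 95% interval 12.5 to 21.5) and in 11.5% of those of library 2 (7.86 to 15.9), against 0.340% and 0.758% of B cells; before thinning the shares were 66.7% and 44.3%. Tcf7, the related factor TCF-1, was seen in 13.8% and 8.02% of thinned cells and in 58.2% and 31.3% before thinning. Ccr7 was seen in 11.7% and 20.2% of thinned cells. B cells also express it, and it was seen in 26.9% and 22.5% of thinned B cells, so that this receptor did not set the gate apart from B cells. Dapl1, listed here with the naive genes, was seen in 24.5% and 10.7% of thinned cells and in no thinned B cell.

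Transcripts of the killer lineage were also common, while those of granzymes and Ifng were rare. Nkg7 was seen in 80.9% and 41.6% of gated cells, or 28.7% (23.5 to 34.4) and 11.5% (7.86 to 15.9) after thinning, against 0.227% and 0.284% of unthinned B cells. Klrd1, the CD94 chain of a receptor that reads class I molecules, was seen in 54.6% and 29.8%, or 15.6% and 6.11% after thinning. Ly6c2, a surface protein raised on memory CD8 T cells, was seen in 40.8% and 27.5%, or 16.3% and 8.78% after thinning. Gzmb, the granule protease granzyme B, was seen in 2.13% and 4.96% of cells and Gzma in 1.06% and 8.40%. Ifng was seen in 2.84% and 2.29%. The inhibitory receptor Pdcd1 (PD-1) had 2 UMIs in each library and Lag3 had 9 and 1. Other members of the same list had more, such as Cd160 with 24 and 6 and Ctla4 with 14 and 24. Of 11 genes of that list tested against all other cells, 4 were higher (Cd160, Ctla4, Tnfrsf9 and Tox) and 2 were lower. Over all genes 11.4% were higher there and 20.3% lower. Mki67, a marker of dividing cells, had 2 and 1 UMIs. Levels in B cells were 0.0566% and 0.0948% of cells for Gzmb and 0.283% and 0.190% for Ifng.

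**Figure D2:**
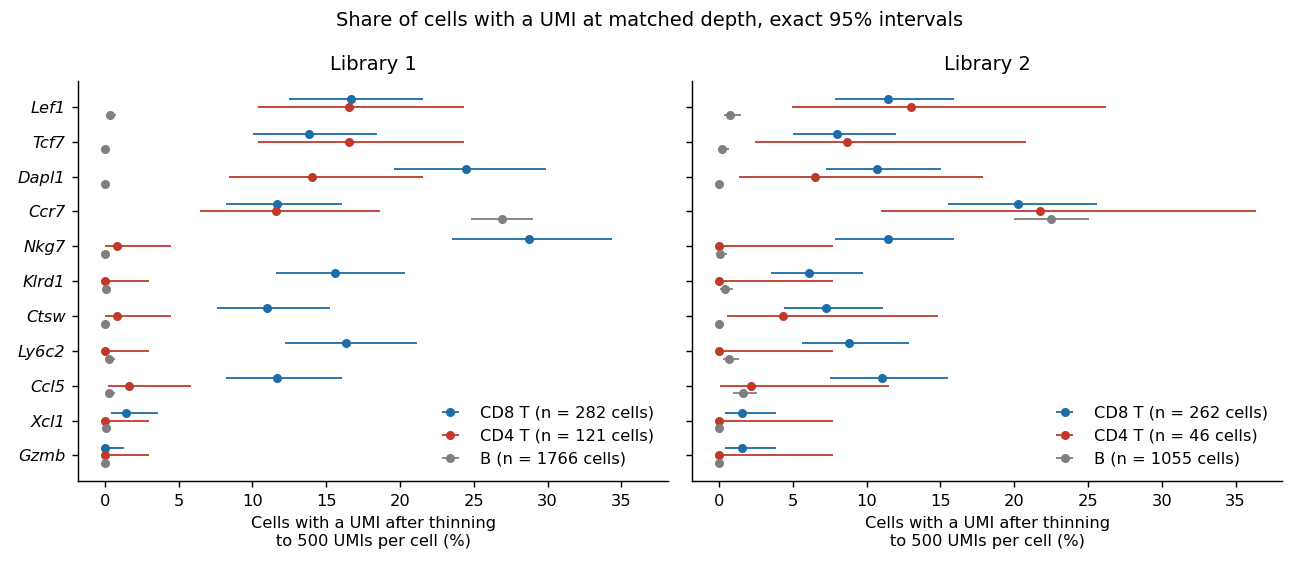
Percent of cells with a UMI (horizontal axis) for 11 genes (vertical axis) after every cell was thinned to 500 UMIs, in CD8 T cells, CD4 T cells and B cells of each library; points are shares and bars are exact 95% binomial intervals. CD8 T and CD4 T cells lie close for Lef1 and Tcf7, while Nkg7 lies at 28.7% and 11.5% in CD8 T cells and at 0.826% and 0% in CD4 T cells.

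CD8 T cells differed from CD4 T cells in a compact set of genes: killer-lineage receptors and granule genes were higher, and helper and regulatory genes were lower. UMIs were summed per library and class and tested with edgeR's quasi-likelihood test, with the library as a block and Benjamini-Hochberg adjustment over 7227 genes. At an adjusted p of 0.05, 58 genes were higher (0.803% of the genes tested) and 41 were lower (0.567%). The CD4 class held 167 cells. Its fibro-adipogenic markers summed to 3242 and 5439 CPM, above the 1475 and 1518 of CD8 T cells. Its neutrophil markers summed to 20.4 and 269, below the 643 and 537 of CD8 T cells. The part of either in the result was not tested. The count fell to 29 with DESeq2 and to 7 without the library as a block, and was 175 with no filter on low counts. The higher genes were 58.6% of those called in the main fit, 34.5% with DESeq2, 47.6% without cells holding markers of other lineages and 71.4% without the block. With DESeq2, Adgrg5, Bend4, Ccl4, Ccr9, Ctla4, Ctsw, Eomes, Gpm6b, Ifi27l2a, Kera, Klrk1, Lcn4, Pdcd1, Slpi and Tbc1d4 missed the threshold, and without the block Il17f, Klrd1 and Ly6c2 alone of the 27 genes named by rule passed it.

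Of the killing genes, 3 of 14 tested were higher in CD8 T cells and none was lower, with a median log2 fold change of 1.03 against 0.05 over all genes. Nkg7, at the 721 and 264 CPM given above, was 26.3-fold higher than in CD4 T cells (log2 4.72 ± 0.50 SE, adjusted p = 3.4e-05, edgeR). Both CD8 values were above both CD4 values. Ctsw, the lymphocyte protease cathepsin W, was at 239 and 123 CPM in CD8 and at 25.5 and 52.1 in CD4 T cells, a log2 difference of 2.70 ± 0.46. Gzmm, granzyme M, was at 34.5 and 14.1 in CD8 T cells and had no UMI in CD4 T cells, which makes it at least 4.41-fold higher (taking 3 UMIs over the whole CD4 class as the floor).

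Of the memory and effector genes, 4 of 19 tested were higher and none was lower. Ly6c2 was at 502 and 228 CPM in CD8 T cells and without a UMI in any of the 167 CD4 T cells, so at least 65.6-fold higher. Klrd1 was at 263 and 148 against 7.66 and 0, on 3 CD4 UMIs in all, a ratio of 36.4 with a counting interval of 12.4 to 177. Eomes, a T-box transcription factor of memory cells, was at 26.4 and 23.1 and at least 4.23-fold higher. Klrk1, the activating receptor NKG2D, was at 11.8 and 21.9 and at least 2.70-fold higher. Eomes and Klrk1 missed the threshold when the gate asked for 2 Cd8 UMIs, and Klrk1 also when it asked for Cd8b1.

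Other genes raised in CD8 T cells spanned adhesion, chemokines and lineage control. Runx3, the transcription factor that silences Cd4 in the CD8 lineage, was at 177 and 125 CPM against 40.8 and 17.4 (5.66-fold higher, SE 0.42 on the log2 scale, adjusted p = 0.00031, edgeR), and it was the 1 gene called among 12 CD8 lineage regulators. Ccr9, a gut-homing receptor also found on naive CD8 T cells, was at 53.6 and 20.6 and at least 6.75-fold higher. It was the only member called among 17 naive and lymph node homing genes. Ccl4, a chemokine that draws other leukocytes, was at 46.4 and 45.0 against 5.10 and 8.69, on 3 CD4 UMIs, a ratio of 7.74 (2.56 to 38.3). Slpi, a secreted protease inhibitor, was at 88.2 and 29.6 and at least 10.8-fold higher. In CD8 T cells with a Ccl5 UMI it was at 3.92 and 67.8, and in those without at 114 and 17.1. The neutrophil markers stood at 23.5 and 1633 in the former and at 830 and 179 in the latter. Whether Slpi came from other cells was not tested. Bend4 was at 16.4 and 65.6 and at least 6.21-fold higher, and the adhesion receptor Adgrg5 at 38.2 and 28.3 and at least 5.76-fold higher. Lcn4, a lipocalin, was at 80.0 and 37.3 against a single CD4 UMI, a ratio of 31.6 (5.56 to 1258).

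Helper and regulatory genes were lower in CD8 T cells: 7 of 15 tested were lower and none higher, with a median log2 fold change of -1.95. Cd40lg, the ligand through which helper cells license B cells, was at 6.36 and 0 CPM in CD8 and at 79.1 and 69.5 in CD4 T cells (log2 -4.16 ± 0.76). Tnfrsf4, the costimulatory receptor OX40, was at 10.9 and 59.1 against 283 and 530 (-3.57 ± 0.37, adjusted p = 8.8e-09, edgeR). Icos, another costimulatory receptor, was at 35.4 and 84.9 against 197 and 330 (-1.95 ± 0.35). Ctla4, an inhibitory receptor of regulatory T cells, was at 12.7 and 30.9 against 145 and 122 (-2.62 ± 0.50). In each of these 4 genes both CD8 values lay below both CD4 values. Ikzf2, Rora and Zbtb7b were the other members called lower. Pdcd1 was at 1.82 and 2.57 against 56.1 and 17.4 (-4.01 ± 0.94), and Ctla4 and Pdcd1 were the 2 called of 9 inhibitory receptor genes.

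Outside the lists, Il17f, a cytokine of type 17 cells, had 1 UMI in CD8 T cells against 117 and 34.8 CPM in CD4 T cells, a ratio of 0.00540 (0.000134 to 0.0315). Maf, a transcription factor of helper subsets, was at 11.8 and 6.43 against 105 and 60.8 (log2 -2.95 ± 0.54). Tbc1d4 was at 6.36 and 16.7 against 105 and 60.8 (-2.79 ± 0.59). Gpm6b was at 0.909 and 10.3 against 51.0 and 34.8 (-3.20 ± 0.74). The connective tissue genes Kera and Col1a1 and the milk-fat-globule gene Mfge8 were also lower, Col1a1 at 68.2 and 60.4 against 227 and 1017. Ifi27l2a, an interferon-induced gene, was at 380 and 284 against 1148 and 608 (-1.10 ± 0.26) and was the 1 gene called of 16 interferon genes.

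Several lists held no call between CD8 and CD4 T cells, in a comparison where few genes of any kind were called. None of 23 genes of the T cell receptor complex and its signalling, none of 14 MHC class I genes, none of 20 immediate early and heat shock genes and none of 8 cell cycle genes passed the threshold in edgeR, where 555 of all genes had an unadjusted p under 0.05. Lef1 had a log2 difference of 0.00 ± 0.31 and Tcf7 of -0.18 ± 0.32. Dapl1 was at 597 and 226 CPM in CD8 T cells, with a difference of 0.91 ± 0.32 and an adjusted p of 0.22 (edgeR). Ccl5, at 943 and 792 in CD8 T cells and 17.9 and 26.1 in CD4 T cells, had a difference of 5.60 ± 1.59 and an adjusted p of 0.57 (edgeR). Missing the threshold does not show that these genes were equal.

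**Figure D3:**
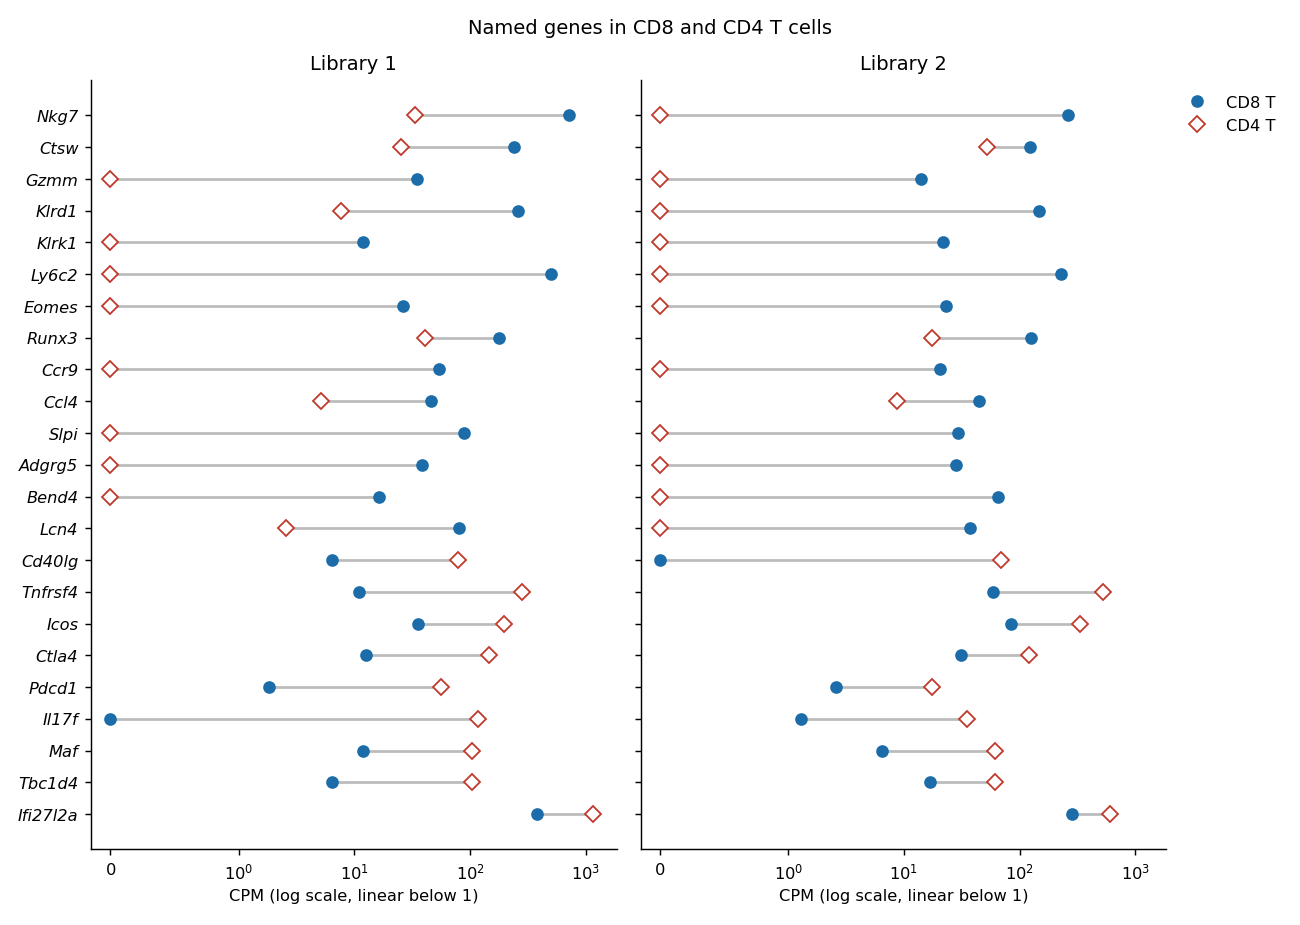
CPM (horizontal axis, logarithmic above 1 and linear below) of 23 named genes in CD8 T cells (filled circles) and CD4 T cells (open diamonds), 1 panel per library. Ly6c2, Gzmm, Eomes, Klrk1, Ccr9, Slpi, Adgrg5 and Bend4 stand at 0 in CD4 T cells of both libraries, and Cd40lg, Tnfrsf4, Icos and Ctla4 lie to the left in CD8 T cells.

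Against NK cells the CD8 T cells were higher in T cell and naive genes and lower in a number of chemokine, memory and effector genes. The NK class, cells with a UMI of Ncr1, Klrb1c or Klre1 and no CD3 or Cd79a UMI, held 19 and 25 cells. In the same fit, 295 genes were higher in CD8 T cells (4.08%) and 252 were lower (3.49%). Without the library as a block 199 were called, and the higher genes were then 66.3% of the calls, against 53.9% with it. With DESeq2 35 of the 52 genes named by rule kept their call; Klra8, S1pr1 and Cxcr6 below did not. Xcl1 and S1pr1 missed it without the block. The fibro-adipogenic markers summed to 3327 and 19114 CPM in NK cells, above the CD8 T cells in both libraries. The B cell markers summed to 5672 and 842, above the CD8 T cells in library 1 and below them in library 2; the part of either in the result was not tested. The NK gate excluded CD3 and asked for a UMI of an NK receptor gene. The T cell receptor genes, of which 11 of 23 were higher, therefore describe that gate. Other genes of the T lineage, and NK receptors with their adaptors, may follow from the 2 gates as well. Their values below are descriptions. Trac, for example, was at 524 and 366 against no UMI, at least 19.7-fold higher.

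Of the naive genes, 9 of 17 tested were higher in CD8 T cells than in NK cells and none was lower. Their median log2 fold change was 1.32 when genes without NK UMIs are placed at their bound, against 0.12 over all genes. How much of this follows from gating T cells against NK cells was not tested. Dapl1 was at 597 and 226 against no NK UMI, at least 19-fold higher. Lef1 was at 339 and 217 CPM on 1 NK UMI, a ratio of 37.1 (6.63 to 1468). Tcf7 was at 241 and 148 against 14.2 and 34.4, on 3 NK UMIs, a ratio of 8.67 (2.94 to 42.2). Il7r, the receptor of the survival cytokine IL-7, was at 158 and 149 against 42.7 and 0, a ratio of 6.61 (2.24 to 32.3). S1pr1, which guides exit from lymph nodes, was at 98.2 and 216 against 28.5 and 85.9 (log2 2.08 ± 0.50). Bcl11b, a T lineage transcription factor, was at 213 and 79.7 and at least 6.75-fold higher. Cxcr6, a receptor of tissue-dwelling lymphocytes, was at 104 and 78.4 against a single NK UMI, a ratio of 12.0 (2.12 to 476).

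Effector genes were lower in CD8 T cells than in NK cells. Of 19 memory and effector genes 8 were lower and none higher, of 14 killing genes 4 were lower and none higher, and of 12 cytokine genes 4 were lower and 1, Ltb, higher. Xcl1, a chemokine that draws cross-presenting dendritic cells, was at 50.9 and 28.3 against 1366 and 292 (log2 -3.65 ± 0.55, adjusted p = 0.0024, edgeR). Ccl4 was at 46.4 and 45.0 against 2205 and 962 (-4.42 ± 0.34) and Ccl3 at 17.3 and 1.29 against 669 and 412 (-5.26 ± 0.47). Gzmb was at 15.5 and 47.6 against 754 and 240 (-3.42 ± 0.70), and this call was lost when the gate asked for 2 Cd8 UMIs or for Cd8b1. Klrc1, the NKG2A chain, was at 11.8 and 16.7 against 683 and 515 (-4.81 ± 0.46), and Klrk1 at 11.8 and 21.9 against 683 and 567 (-4.66 ± 0.43). Both adaptors of NK receptors, Tyrobp at 35.4 and 50.1 against 1963 and 1099 and Fcer1g at 39.1 and 41.1 against 1551 and 825, were lower. Klra8, a Ly49 receptor, had no UMI in CD8 T cells and was at least 175-fold lower, although reads of the near-identical Klra genes may be split between them. The same caution holds for Ly6c2 with its neighbour Ly6c1, for Trbc1 with Trbc2 and for the H2-Q genes. Immediate early genes were lower in 4 of 20, among them Atf3 (log2 -2.60 ± 0.38) and Dusp1 (-1.63 ± 0.29).

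Nkg7 and Klrd1 did not pass the threshold against NK cells. Nkg7 was at 721 and 264 CPM in CD8 T cells and at 1252 and 962 in NK cells, a log2 difference of -0.69 ± 0.36 (adjusted p = 0.32, edgeR). Klrd1 was at 263 and 148 against 754 and 344, a difference of -0.81 ± 0.44 (adjusted p = 0.36, edgeR).

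Against all other cells, the comparison that the rule asks for, 1450 of 12756 genes were higher in CD8 T cells (11.4%) and 2587 were lower (20.3%), and DESeq2 called 2093 in all. The gate picked T cells out of a mixed suspension, so T cell genes had to differ and their counts support nothing. The values describe where else in the suspension each gene was found. Lcn4 was at 80.0 and 37.3 CPM against 0.987 and 1.36, 67.2-fold higher, and Adgrg5 at 38.2 and 28.3 against 0.987 and 1.02, 45.2-fold higher. Nkg7 was 39.3-fold, Ctsw 33.1-fold, Cst7 25.6-fold, Dapl1 24.8-fold and Klrd1 23.3-fold higher. Runx3 was at 177 and 125 against 21.4 and 19.1, and Themis, a regulator of T cell receptor signalling in the thymus, at 63.6 and 33.4 against 4.82 and 1.83. The genes called lower included genes of other cells. The mast cell protease Mcpt4 was at 35.3 and 13.3 in other cells and at least 15.9-fold lower in CD8 T cells. The B cell factor Pax5 was at 27.7 and 11.2 in other cells and at least 12.7-fold lower. Genes found in the gated cells too were also called lower, such as the immediate early gene Fos, at 376 and 428 CPM in CD8 T cells.

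Other lists are read here against the 20.3% of all genes that were lower and the 11.4% that were higher. Of 20 immediate early and heat shock genes 12 were lower and 1 was higher, with a median log2 fold change of -1.04 against -0.14 over all genes. Egr1, an immediate early factor, was at 70.9 and 75.9 CPM against 752 and 520 (log2 -2.65 ± 0.27), and Dusp1, a phosphatase induced by stress, at 129 and 251 against 904 and 948 (-1.91 ± 0.22). Of 17 interferon response genes 6 were lower and 3 higher, shares that do not stand far from those over all genes. Isg15, a ubiquitin-like interferon product, was at 39.1 and 75.9 against 131 and 398 (-1.63 ± 0.29). Of 15 MHC class I genes 9 were higher and none lower. B2m, the light chain of class I molecules, was at 4462 and 3173 against 2829 and 2415 (log2 0.98 ± 0.10), and H2-K1 at 1585 and 1402 against 851 and 912. Isg15 lost its call without the library as a block, while Egr1, Dusp1, B2m and H2-K1 kept theirs. Against CD4 T cells none of 20 immediate early and heat shock genes and none of 14 MHC class I genes was called. Their median log2 fold changes there were 0.11 and 0.28, so neither list was shown to set CD8 apart from CD4 T cells. Of 10 genes listed for gamma-delta and innate-like T cells, 4 were lower, namely Blk, Il17a, Sox13 and Zbtb16, and none was higher. The other cells were of many kinds, 2821 of 11897 in the B gate, so these calls do not speak of T cell subsets. Against CD4 T cells 2 genes of this list were tested and neither was called. Against NK cells 1 was tested and not called. Zbtb16, the factor PLZF of innate-like T cells, had 1 UMI in the gate against 14.7 and 14.5 CPM elsewhere, a ratio of 0.0363 (0.000918 to 0.203). Zbtb16 and Mcpt4 missed the threshold with DESeq2.

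Ccl5 divided the gated cells. It was seen in 53 cells of each library, 18.8% and 20.2%, and in the positive cells its median was 12 UMIs in library 1 and 6 in library 2, with a highest value of 94 and 48. The negative cells numbered 229 and 209, and only 9 and 12 cells held a single Ccl5 UMI. After thinning to 500 UMIs the shares were 11.7% (8.19 to 16.0) and 11.1% (7.54 to 15.5), against 0.283% and 1.61% of B cells. In B cells a Ccl5 UMI was found in 1.19% and 4.83%, a single one in 20 of 21 and 49 of 51 cells; the other 2 cells of library 2 held 5 or more, up to 67. Of the NK cells 14 of 19 and 15 of 25 held Ccl5. Cells with Ccl5 were deeper than those without, with a median of 4510 against 3560 UMIs in library 1 and 3497 against 2578 in library 2.

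**Figure D4:**
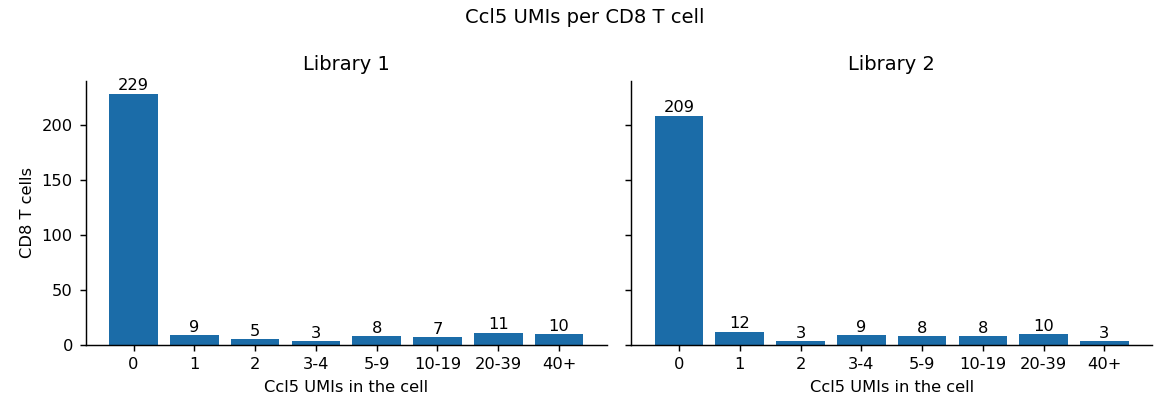
Number of CD8 T cells (vertical axis) by the Ccl5 UMIs in the cell (horizontal axis, in bins that widen to the right), 1 panel per library, with the count above each bar. Most cells hold none (229 and 209), and those with Ccl5 spread from 1 UMI to 94 and 48.

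Cells with Ccl5 carried more transcripts of memory and effector cells and fewer of some naive genes. Ccl5 itself set the split and is not tested. Of 3905 genes tested on sums per library, 24 were higher in cells with Ccl5 (0.615%) and 14 were lower (0.359%). Of 14 memory and effector genes 6 were higher and none lower, with a median log2 fold change of 1.68 against 0.00 over all genes. The count moved with the processing, to 6 with DESeq2, 2 without the library as a block, 72 with DESeq2 size factors, 74 without doublets, 67 when 2 Ccl5 UMIs were asked for (chosen after seeing the data) and 99 with no filter on low counts. The higher genes were 63.2% of those called in the main fit, 44.4% with no filter, 78.3% without cells holding markers of other lineages, 83.3% with DESeq2 and 100% without the block. With DESeq2 Gzmm, Ly6c2 and Xcl1 alone of the 26 genes named by rule passed, and without the block Xcl1 alone. The B cell markers summed to 415 and 3370 CPM in cells with Ccl5 and to 623 and 1605 in those without, and the neutrophil markers to 23.5 and 1633 against 830 and 179. The muscle fibre markers summed to 39.2 and 93.9 CPM in cells with Ccl5 and to 35.5 and 1099 in those without, a shift seen in library 2. The part of these markers and of the difference in depth in the result was not tested.

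Of 5 cytokine and chemokine genes tested, 3 were higher and none lower: Xcl1, Ifng and Ccl4. The list had 14 genes in both tables, Ccl5 among them. Since Xcl1 and Ifng passed the filter only through the cells with Ccl5, the count of 3 is a description. Xcl1 was at 219 and 110 CPM in cells with Ccl5 against 0 and 1.71 in those without, on a single UMI, a ratio of 247 (43.0 to 9864). It was seen in 32.1% and 18.9% of cells with Ccl5, and in 7.55% in each library after thinning, when no cell without Ccl5 kept an Xcl1 UMI. Xcl1 was called in every test named above, DESeq2 and the fit without the block included. Ifng was at 114 and 26.1 against 5.92 and 8.53 (log2 3.32 ± 0.57) and Ccl4 at 106 and 83.5 against 28.4 and 32.4 (1.70 ± 0.36). Both Ifng values and both Ccl4 values of cells with Ccl5 lay above those of cells without.

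The memory and effector genes called higher included Ly6c2, Klrc1, Klrk1, Cxcr3 and Ccr2. Ly6c2 was at 1199 and 558 against 291 and 119 (log2 2.16 ± 0.19, adjusted p = 9.5e-09, edgeR), and after thinning it was seen in 49.1% and 22.6% of cells with Ccl5 against 8.73% and 5.26% of those without. Klrc1 was at 50.9 and 62.6 against a single UMI, a ratio of 80.1 (13.1 to 3287). Klrk1 was at 43.1 and 67.8 against 2.37 and 6.83 (3.64 ± 0.68). The chemokine receptors Cxcr3, at 78.4 and 31.3 against 7.10 and 3.41 (3.35 ± 0.63), and Ccr2, at 43.1 and 52.2 against 1.18 and 10.2 (3.27 ± 0.72), guide experienced cells into inflamed tissue. Over the whole list of 26 cytokine and trafficking receptors 3 were higher and 1, Ccr9, lower, and Klrd1 had a difference of 0.09 ± 0.23 (adjusted p = 0.99, edgeR). Of the killing genes, 2 of 12 tested were higher: Gzmm at 137 and 52.2 against 3.55 and 1.71 (5.07 ± 0.56), and Serpinb9, an inhibitor of granzyme B, at 47.0 and 88.7 against 10.7 and 29.0 (1.87 ± 0.44). Serpinb9 missed the threshold when 2 Cd8 UMIs were asked for, and Ccl4 when Cd8b1 was. Nkg7 had a difference of 0.53 ± 0.19 and an adjusted p of 0.28 (edgeR), Eomes of 1.63 ± 0.49 with 0.14 and Cd44, an activation marker, of 1.74 ± 0.48 with 0.093.

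The naive genes divided. Of 17 tested, 3 were lower in cells with Ccl5 and none higher: Dapl1 at 231 and 146 against 708 and 253 (log2 -1.22 ± 0.23), Igfbp4 at 39.2 and 26.1 against 230 and 101 (-2.31 ± 0.34), and Ccr9 with 3 UMIs against 66.3 and 27.3 CPM, a ratio of 0.133 (0.0269 to 0.406). Ccr9 lost its call when 2 Cd8 UMIs were asked for. Igfbp4 was not among the 11 naive genes called higher in CD8 T cells than in all other cells. Whether its UMIs came from other cells was not tested. None of the other naive genes passed. Among them, Lef1 had a difference of -0.37 ± 0.23, Tcf7 of -0.25 ± 0.24 and Ccr7 of -0.02 ± 0.20. None of 23 T cell receptor genes and none of 13 MHC class I genes passed in edgeR, where 326 of all genes had an unadjusted p under 0.05. Xcl1 was the only call of 8 residency genes.

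The remaining decreases were mostly genes of connective tissue. Dcn, a matrix proteoglycan, was at 114 and 193 CPM in cells with Ccl5 against 462 and 652 in those without, and Apoe at 43.1 and 41.7 against 264 and 162 (log2 -2.30 ± 0.30). Sparc was at 23.5 and 78.3 against 189 and 172, Col3a1 at 43.1 and 26.1 against 147 and 113, and Serping1 had 3 UMIs against 50.9 and 54.6 CPM. The 10 fibro-adipogenic markers, among which Dcn and Col3a1 are counted, summed to 446 and 783 in cells with Ccl5 and to 1785 and 1759 in those without. When cells with 2 or more UMIs of markers of other lineages were left out of the gate, Apoe, Col3a1, Gpx3, Rcn3, Sepp1 and Sparc no longer passed the threshold. The increases named above that entered that fit did pass. The cells left out numbered 1 and 2 with Ccl5 and 10 and 14 without. Leaving out cells for such UMIs can lower connective tissue genes by construction, so this run does not test the increases.

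**Figure D5:**
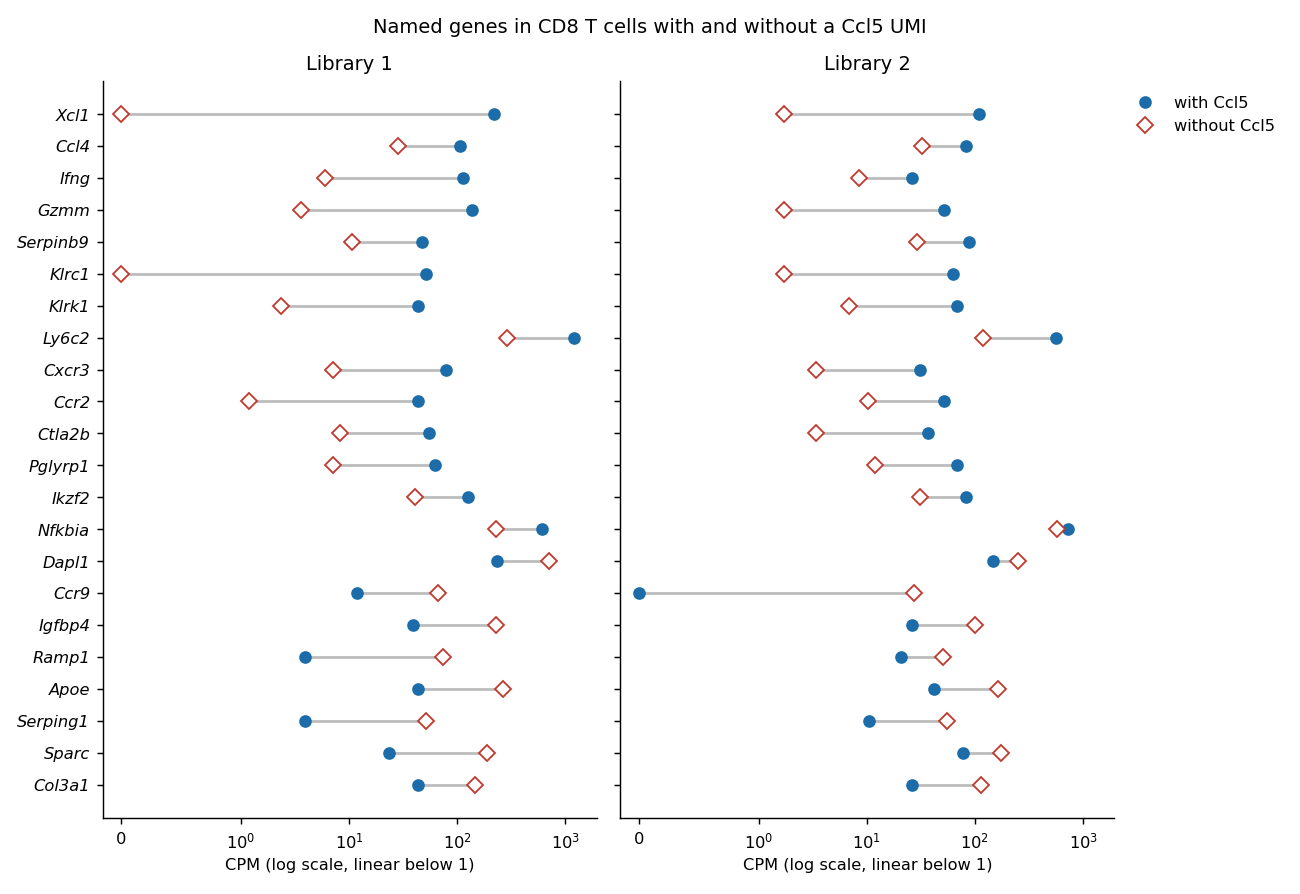
CPM (horizontal axis, logarithmic above 1 and linear below) of 22 named genes in CD8 T cells with a Ccl5 UMI (filled circles) and without one (open diamonds), 1 panel per library. From Xcl1 down to Nfkbia the cells with Ccl5 lie to the right in both libraries, and from Dapl1 down to Col3a1 to the left.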

How the data were processed

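The deposited single-cell tables hold UMI counts per gene and cell, as the authors left them; their filters on cells and genes are not given in the sources used here. Per the submitters' processing notes, Cell Ranger 2.2.0, STAR 2.5.1b, R 3.5.1 and Seurat 2.3.4 are listed, with mm10 as the build; no role is given for any of them. The tables held 14601 and 14164 genes, 13884 of them in both, and 19353328 and 15507938 UMIs, with a median of 2516 and 2027 UMIs per cell. Strand handling was not given, so overlapping and antisense genes are uncertain.

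Counts were summed per library and class and tested with edgeR 4.0.16 in R 4.3.3 (filterByExpr, TMM, robust quasi-likelihood fit, two-sided). CD8 T against all other cells and the Ccl5 split used 4 sums with 1 residual degree of freedom each, and CD8 T, CD4 T, NK and B cells shared 1 fit of 8 sums with 3. The library was a block, because the sums compared come from the same 2 libraries. DESeq2 1.42.0 was an alternative. CPM values in comparisons are over the 13884 shared genes, and in descriptions of single classes over all genes of that table. Errors of log2 fold changes are standard errors. Shares carry exact Clopper-Pearson intervals of 95%. A class without a UMI was set to 3 UMIs over both libraries. Scrublet was run as carried in scanpy 1.11.5, and its doublets were kept in the main results. The scripts were tested on simulated data.

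The cells and the 15 gene lists were chosen with earlier results of these data known. Genes were named by a rule: for each comparison the 10 largest increases and 10 largest decreases past the threshold with at least 20 UMIs in the higher class and the same direction in both libraries, without predicted, mitochondrial, ribosomal and haemoglobin genes, and up to 4 members of each list. Genes printed as not passing, Dcn, and the further list members Ikzf2, Rora and Zbtb7b were chosen after their values were seen, and some genes the rule selects are not reported here.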

Additional observations from a re-analysis of the deposited data

How the results depend on the processing

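No gene named by the rule changed direction under any alternative run. For the largest increases and decreases the rule itself asked for the same direction in both libraries. Leaving out a library could therefore not reverse them. Leaving out a library was done for named genes only and gives values with no test, since 1 library leaves no replicate. A value counted as moved when it lay further from the main value than the standard deviation of the values of the 2 libraries. Without library 1 and without library 2, that held for 7 and 2 of 27 named genes against CD4 T cells and 9 and 3 of 52 against NK cells. It held for 2 and 3 of 70 against all other cells and 3 and 1 of 26 in the Ccl5 split. This limit widens as the libraries differ more, so low counts do not show that the libraries agree. Ifng in the Ccl5 split had a log2 difference of 4.20 in library 1 and 1.69 in library 2. The number of genes called in CD8 T against all other cells was 4037, and it was 2093 with the DESeq2 Wald test and 2599 with no replicate block. Against CD4 T cells it was 99, and 29, 175 and 7 with DESeq2, with no filter on low counts and with no replicate block. Against NK cells it was 547, and 199 with no replicate block. For the Ccl5 split it was 38, and 74 without doublets, 72 with DESeq2 size factors, 6 with DESeq2, 99 with no filter, 2 with no replicate block and 67 with at least 2 Ccl5 UMIs, an alternative chosen after seeing the data. With no replicate block 3 of 27 named genes kept their call against CD4 T cells, 29 of 52 against NK cells and 1 of 26 in the Ccl5 split. The share of gated cells in library 2, 4.16%, was 2.45% when 2 Cd8 UMIs were asked for and 3.67% when Cd8b1 was. Shares of cells with a UMI of 11 genes were higher in 22 of 22 values with no thinning and in 22 of 22 with thinning to 1000 UMIs. Keeping more UMIs of the same cells raises such shares by construction. These counts therefore do not say whether differences between classes depend on depth. The 19 and 25 NK cells and the 46 CD4 T cells of library 2 limit the depth of those classes.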
